A study of Homo sapiens with 9 samples.

Results

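The vehicle libraries of SW1783, a human astrocytoma cell line, are 3 of the 9 RNA-seq libraries in the series, and they are the ones labelled vehicle. They show what the line expressed with the solvent and without any extract. The other 6 libraries were from cells given an ethanol extract of a medicinal plant or fungus, and none of them was used here. SW1783 (HTB-13) was grown in L-15 medium with 10% heat-inactivated fetal bovine serum in an incubator without added CO2. The cells received the solvent dimethyl sulfoxide (DMSO) for 24 h. The sample labels give 0.1% DMSO and the series design gives 2%, and the difference could not be settled. An established line is a single tumour cell population kept in culture, without the neurons, vessels and immune cells of a brain. The 3 libraries share a batch letter. Nothing in the labels states that they were separate cultures, so the spread between them may be technical. There is 1 group, so nothing was tested and no p-value is given.

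Astrocytes are the glial cells that support neurons: they clear glutamate, buffer potassium and water, and are coupled by gap junctions. Their usual markers are the intermediate filament GFAP, the water channel AQP4, the glutamate transporters SLC1A2 and SLC1A3, and the calcium-binding protein S100B. Astrocytomas are tumours with astrocyte features, and their gene expression is often described as proneural, classical or mesenchymal, the last marked by matrix, adhesion and wound-healing genes. A mammalian promoter is often CpG-rich, and such promoters are common at genes used by most cells.

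Levels are given on either of the following scales. CPM, the counts scaled to a fixed total with edgeR's TMM factors, were used to follow 1 gene across libraries. TPM, which also divide by transcript length before scaling, were used to compare genes with each other. Orders given in CPM are orders of read share, in which long transcripts weigh more. Values after ± are SD over the 3 libraries (n = 3). The libraries held 43805624, 40269665 and 42035108 counts, of which 97.2% to 97.3% lay in protein-coding genes and 5.93% to 6.46% in mitochondrial genes. A gene was called detected when it had at least 1 CPM in all 3 libraries. This held for 13475 of 60675 genes (22.2%), and for 12069 of 19693 protein-coding genes (61.3%). A further 2831 protein-coding genes (14.4%) had a count of 0 in all 3 libraries, which allows a level of up to 0.0688 to 0.0742 CPM per library (3 counts), and 4793 lay between. These bounds cover counting error only. Of 1448 miRNA genes 0 were detected, as were 0 of 940 snoRNA genes, 22 of which had counts.

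The promoter sequences of 7 genes are shown because they span the levels described here, from some of the most abundant transcripts to genes near 0 counts. Each is the 100 bases before the RefSeq start site (GRCh38.p14), 5′ to 3′ on the gene's strand, and capitals mark GGGCGG (the GC box), CCAAT and TATAAA on either strand. VIM is at chr10:17228141-17228240 (+), TMSB10 at chr2:84905556-84905655 (+), PPAT at chr4:56435616-56435715 (-), PAICS at chr4:56436160-56436259 (+), SRP72 at chr4:56467517-56467616 (+), SOX2 at chr3:181711825-181711924 (+) and MGMT at chr10:129467141-129467240 (+).
VIM: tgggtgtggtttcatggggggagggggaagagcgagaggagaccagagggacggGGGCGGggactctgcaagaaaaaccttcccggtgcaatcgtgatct
TMSB10: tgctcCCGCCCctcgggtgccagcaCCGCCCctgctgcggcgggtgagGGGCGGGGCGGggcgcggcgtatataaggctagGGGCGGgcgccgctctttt
PPAT: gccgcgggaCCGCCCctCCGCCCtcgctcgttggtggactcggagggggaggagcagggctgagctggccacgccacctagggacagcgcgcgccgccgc
PAICS: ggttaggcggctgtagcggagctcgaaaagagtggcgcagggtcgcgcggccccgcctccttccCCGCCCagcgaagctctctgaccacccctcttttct
SRP72: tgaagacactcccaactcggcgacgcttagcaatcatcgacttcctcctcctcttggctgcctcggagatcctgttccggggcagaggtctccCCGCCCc
SOX2: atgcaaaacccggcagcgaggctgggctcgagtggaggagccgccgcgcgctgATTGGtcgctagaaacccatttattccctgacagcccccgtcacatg
MGMT: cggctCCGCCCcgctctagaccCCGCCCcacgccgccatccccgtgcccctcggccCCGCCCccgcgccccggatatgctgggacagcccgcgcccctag

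The GC box was present in 6 of these 7 stretches, those of the abundant VIM and TMSB10 as well as that of MGMT, which was close to 0. PPAT and PAICS, 2 enzymes of purine synthesis, are transcribed away from each other from RefSeq start sites 645 bases apart, and both stretches hold the motif. The RefSeq start lies 108 bases from the start of the GENCODE transcript used here for PAICS and 281 for SRP72. GENCODE places the start of the PAICS gene at 56435741 and that of SRP72 at 56467336. The stretches shown for these genes therefore lie inside the genes as GENCODE annotates them, not before them.

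Across the genome, detection went with CpG content. A RefSeq window of 300 bases (250 before to 50 after the start) was matched for 15215 nuclear protein-coding genes. It was called CpG-rich when its observed over expected CpG ratio was at least 0.6 and its GC content at least 50%. Of the 9957 genes with a CpG-rich window, 82.7% were detected and 3.70% were at 0. Of the 5258 other genes, 31.0% were detected and 31.4% were at 0. The TATAAA motif was in 9.68% of all windows, in 5.25% of those of detected genes and in 24.0% of those of genes at 0. The GC box was in 60.5% of all windows, 72.6% of those of detected genes and 24.2% of those of genes at 0, and since it contains a CpG it is not independent of the CpG class. CCAAT was in 36.6% of all windows and 37.1% of those of detected genes. A CpG-rich window did not guarantee transcripts: 1723 genes with one were not detected, MGMT and SOX2 among them, and 368 of these were at 0. Conversely, the window of the abundant VIM was not CpG-rich, with a ratio of 0.584 and a GC content of 48.0%. Of the 304 olfactory receptor genes with a window, 0.987% had a CpG-rich one.

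The RNA was spread over many genes, and the leading ones encoded mitochondrial proteins, cytoskeleton and extracellular matrix. The 10 most abundant genes took 7.18% to 7.51% of counts, and between 801 and 817 genes were needed to reach 50%. In CPM the leading nuclear genes were ACTB (cytoplasmic actin, 9699 CPM), VIM (the intermediate filament vimentin, 5803), FN1 (fibronectin, 5512), EEF1A1 (translation elongation, 5372), TGFBI (a matrix protein induced by TGF-beta, 4782) and GAPDH (glycolysis, 4601). COL1A1, a chain of type I collagen, had 4066, 4160 and 4140 CPM in libraries 1 to 3. The coefficient of variation (CV, the SD over the mean) of these 7 genes ran from 0.495% to 2.62% over the libraries.

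**Figure D1:**
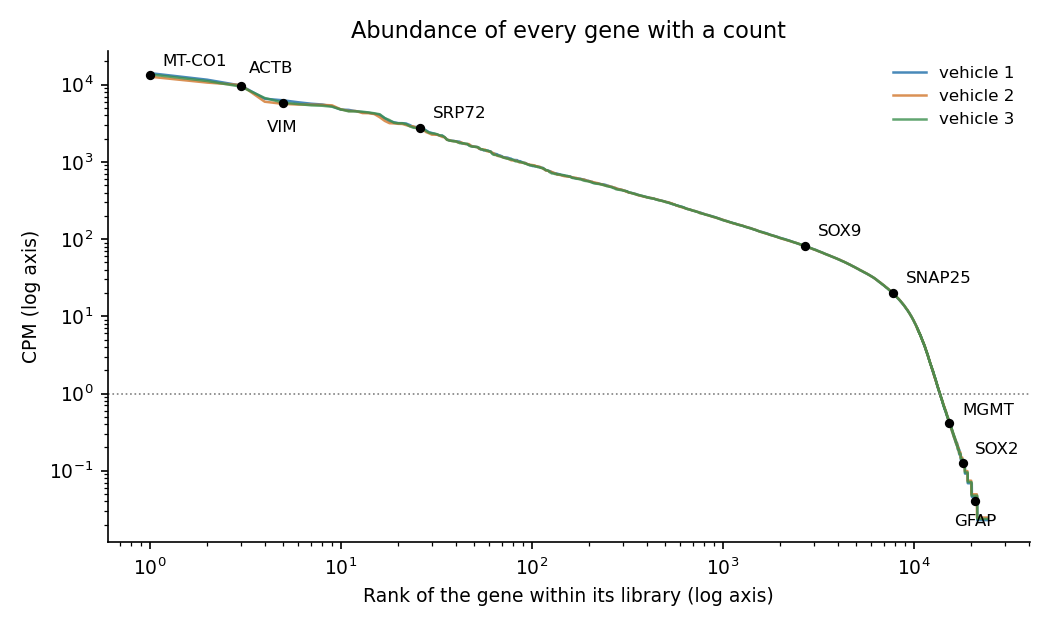
CPM of every gene with a count (vertical, log axis) against its rank within its library (horizontal, log axis), 1 line per vehicle library, with the mean CPM of 9 genes as black points and the detection limit of 1 CPM dotted. The 3 lines lie on each other from MT-CO1 (mean 13482 CPM) to the limit, and MGMT (0.416), SOX2 (0.128) and GFAP (0.0406) lie below it.

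Per transcript length the order changed toward short messages. Among nuclear protein-coding genes the leading ones in TPM were ACTB (11620), VIM (6255), GAPDH (5647), TMSB10 (5401), LGALS1 (4731), RPS2 (4487), ACTG1 (4375) and TGFBI (3925). TMSB10 encodes thymosin beta 10, a small protein that binds actin monomers, and LGALS1 encodes galectin 1, a secreted lectin. TMSB10 gave 5506, 5231 and 5466 TPM. At least 1000 TPM were reached by 126 protein-coding genes, which together held 21.5% of counts, whereas the 3533 genes between 1 and 10 TPM held 3.31%. AHNAK, a very large scaffold protein, shows how a length can decide a TPM: it had 2625 TPM with the annotated principal transcript and 213 TPM with all its exons joined. VIM and TGFBI fell to 3986 and 2170 TPM on that length. Detected genes described in the next paragraphs whose TPM depended on it by more than 2-fold are given with both values. The ribosomal protein family was detected almost whole (78 of 80 genes), and the exceptions were RPL3L (0.235 TPM) and RPL10L (0.0215), the variants of striated muscle and testis.

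The label of an astrocytoma was met by part of the astrocyte markers. Of 21 astrocyte markers, 9 were detected (42.9%, against 61.3% of all protein-coding genes) and 1 was at 0. Their summed level was 460 to 470 TPM per library. The detected ones are also known from other cell types. GJA1, the gap junction protein connexin 43, had 177, 184 and 183 TPM. CLU (clusterin, a secreted chaperone, 95.8 TPM), CST3 (the protease inhibitor cystatin C, 84.4), SOX9 (a transcription factor of glia and cartilage, 47.5) and GLUL (glutamine synthetase, 24.8) followed. SLC1A3, a glutamate transporter, was at 11.5 TPM and APOE, the main lipid carrier of the brain, at 9.46.

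Several of the usual astrocyte markers were at or near 0. GFAP had 1, 4 and 0 counts in the 3 libraries. AQP4 had 1 count in each library, ALDH1L1, a folate enzyme used to mark astrocytes, had 0, 1 and 1, and S100B had 1, 7 and 5. SLC1A2, the main glutamate transporter of astrocytes, had 10, 5 and 10 counts, or 0.0376 TPM, and the connexin GJB6 had none. These levels are below detection in every library and differ between libraries by no more than a few counts. In bulk RNA fewer cells of a type and less RNA per cell cannot be told apart, so a level says nothing of how many cells express the gene.

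Mesenchymal markers were all present: 24 of 24 were detected. Their summed level was 14055 to 14536 TPM, and its mean was 30.8 times that of the astrocyte list. VIM had 6317, 6088 and 6361 TPM, and FN1 had 1598, 1577 and 1644. COL1A1 stood at 1410 ± 28.5 TPM, COL6A1 at 1175, CD44, the hyaluronan receptor, at 1069 ± 14.8, and SPARC, a matrix protein, at 1488 ± 27.8. THY1, a surface protein of fibroblasts and neurons, was at 332 TPM, SNAI2, a transcription factor of mesenchymal transition, at 84.9 and FAP, a fibroblast protease, at 65.8. N-cadherin (CDH2) was at 194 ± 3.69 TPM, while E-cadherin (CDH1) had 1, 3 and 1 counts.

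**Figure D2:**
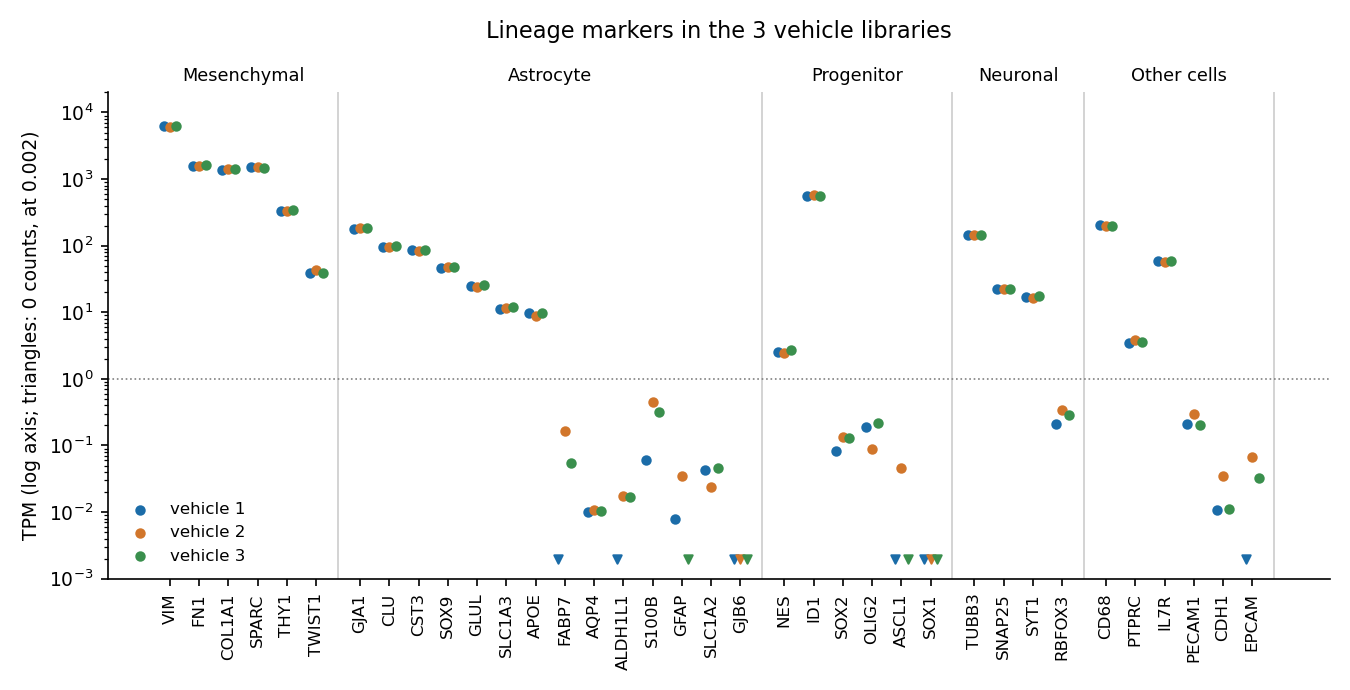
TPM (vertical, log axis) of 36 lineage markers in each of the 3 vehicle libraries (colours), with triangles for a count of 0 and a dotted line at 1 TPM. The mesenchymal genes drawn here lie between 38.5 TPM (TWIST1) and 6361 TPM (VIM). Of the 14 astrocyte genes 7 lie above the line and 7 below it.

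Genes of neural progenitors and glial fate were split. Of 30 genes, 15 were detected (50%, against 61.3% of all protein-coding genes) and 3 were at 0. The inhibitors of differentiation ID1 (563 TPM) and ID3 (353) and the nuclear factor NFIX (571 ± 23, or 210 with all exons joined) led the list. HES1, a target of Notch signalling, was at 37.2 TPM and SOX4 at 34.6. NES, the progenitor filament nestin, was low at 2.53 ± 0.128 TPM. SOX2, whose promoter is shown above, had 4, 6 and 6 counts, OLIG2 had 12, 5 and 13, and SOX1, HES5 and OTX2 had none. SOX2 and OLIG2 are the factors by which glioma stem-like cells are often recognised.

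Markers of oligodendrocytes and neurons were mostly missing, with a few well-expressed exceptions. Of 19 oligodendrocyte lineage markers 5 were detected, led by CNP (56.0 TPM), a myelin enzyme that also occurs outside myelin, and CSPG4 (48.9), the NG2 proteoglycan. SOX10, MOG, MAG and UGT8 were at 0. Of 20 neuronal markers 6 were detected. TUBB3, a tubulin used as a neuronal marker and also found in tumours, had 146, 146 and 147 TPM. SNAP25, part of the vesicle fusion machinery, had 22.2, 22.6 and 22.2 TPM, and the vesicle calcium sensor SYT1 was at 17.2. RBFOX3, the nuclear antigen NeuN, was at 0.278 TPM and ELAVL4 at 0.

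Markers of blood, vessel, muscle and liver cells were mostly not detected. Of 17 myeloid and microglial markers 3 were detected: CD68, a lysosomal protein (198 TPM), PTPRC, the leukocyte phosphatase CD45 (3.42, 3.81 and 3.61 TPM), and CSF1R (1.60). SPI1, the myeloid master factor, was at 0.0646 TPM and C1QA, C1QB and C1QC were at 0. Of 12 lymphoid markers the detected one was IL7R, a cytokine receptor, at 58.2 TPM, with CD3E and MS4A1 at 0. Endothelial markers gave 3 of 13, among them KDR (10.7 TPM), with CDH5 at 0. With a limit of 0.5 CPM in place of 1, endothelial markers gave 7 of 13 and muscle markers 4 of 13. Erythroid markers gave 0 of 9, pluripotency and germ cell markers 1 of 10 (PRDM1, 4.88 TPM), muscle markers 2 of 13 (NKX2-5, 14, and PAX3, 7.63, or 3.34 with all exons joined) and hepatocyte markers 2 of 14 (FGG, a fibrinogen chain, 12.4, and SERPINA1, 5.08). Melanocyte and neural crest markers gave 4 of 13, led by TFAP2A (102 TPM, or 39.2 with all exons joined) and MITF (13.4), with TYR at 0. Pericyte and smooth muscle markers stood apart from these, with 11 of 13 detected (84.6%) and a summed level of 688 to 708 TPM, above that of the astrocyte list. They were led by TAGLN (367 TPM), which is actin-associated, and ACTA2 (229), itself an actin. TAGLN and ACTA2 held most of the sum, and the median of the list was 3.74 TPM, below the 5.61 TPM of all protein-coding genes. TAGLN and PDGFRB are in the mesenchymal list too, and CSPG4 in that of the oligodendrocyte lineage.

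Some keratins of simple epithelia were expressed, while most other epithelial genes were not detected. KRT7 had 843, 816 and 873 TPM, and it led the 55 keratin genes, of which 7 were detected and 25 were at 0. KRT18 had 321, 317 and 317 TPM and its usual partner KRT8 19.5, 19.2 and 19.5, so KRT18 exceeded KRT8 in each library. With all exons joined KRT8 was at 9.22 TPM. Of 17 epithelial markers, a list without KRT7, 5 were detected, KRT18, KRT8 and MUC1 (8.99 TPM, or 2.52 with all exons joined) among them. The adhesion protein EPCAM was at 0.0327 TPM, and the keratin KRT20 and the epithelial factor GRHL2 were at 0.

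Genes used to sort glioblastomas into classes were present in full for 2 classes and sparse for the third. All 20 mesenchymal class genes were detected, with a median of 275 TPM. Besides VIM, FN1 and CD44 they included TGFBI (3925 ± 51.1 TPM), TIMP1, an inhibitor of matrix proteases (2861), ANXA2, a membrane-binding protein (2249, or 658 with all exons joined), and CHI3L1, a secreted glycoprotein (1567). The 20 also count NF1, a gene altered in gliomas, whose detection is not a sign of this class. The 12 classical class genes were all detected but at a median of 7.92 TPM, led by EGFR (78.2 ± 2.39). Of 14 proneural class genes 4 were detected: TCF4 (13 TPM, or 6.00 with all exons joined), GABRA3 (9.64), PDGFRA (8.24 ± 0.332) and P2RX7 (2.08). DLL3 was at 0.0182 TPM and DCX at 0.00208. For scale, the median protein-coding gene had 5.61 TPM. The lists overlap with those of mesenchymal and glial markers, so these counts are not separate evidence.

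Genes altered in gliomas were nearly all transcribed, 29 of 32 (90.6%, against 61.3% of all protein-coding genes). CDKN2A, the locus of the cell cycle inhibitors p16 and p14ARF, had 457, 443 and 473 TPM (a mean of 209 with all exons joined), and its neighbours CDKN2B (20.7) and MTAP (39.2) were detected too. RB1, the retinoblastoma protein that CDK4 inactivates, was low at 2.66, 2.89 and 2.75 TPM, while CDK4 stood at 116. IDH1 was at 40.0 ± 1.47 TPM, IDH2 at 103 ± 1.31 and NF1 at 29. Gene totals do not show the sequence of a transcript, so they carry no information on mutations.

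The 3 glioma genes below detection were MGMT, TERT and CCND2. MGMT, the enzyme that repairs DNA alkylated by temozolomide, had 13, 24 and 15 counts, or 0.386, 0.779 and 0.470 TPM, with a promoter that is CpG-rich. TERT, the catalytic part of telomerase, had 1.01, 1.36 and 0.927 CPM (44, 55 and 39 counts), so it lay at the detection limit. CCND2, a D-type cyclin, was at 0.0508 TPM, whereas CCND1 stood at 108 and CCND3 at 94.5. MGMT and CCND2 stayed below 1 CPM in every library.

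Receptor tyrosine kinases pass signals from growth factors, and 23 of 41 were detected (56.1%, near the 61.3% of all protein-coding genes). AXL had 313, 313 and 328 TPM and MET, the receptor of hepatocyte growth factor, 288, 280 and 294. EPHA2, a receptor for ephrins, was at 179 TPM, FGFR1 at 86.9, EGFR at 78.2 and ERBB2 at 51.3. PDGFRB (22.1 ± 0.156 TPM) exceeded PDGFRA (8.24 ± 0.332), and KIT was at 21.4. FLT3 and FLT4 were at 0. Downstream, 31 of 33 genes of the PI3K, AKT and MTOR pathway were detected (93.9%, against the same 61.3%). They were led by EIF4EBP1 (246 TPM), a translation repressor that MTOR inactivates, RHEB (209) and AKT1 (156). The exceptions, PIK3CG (0.0135) and INPP5D (0.0188), belong to blood cells.

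Secreted signals were represented by a few members of each family. Of 10 Frizzled receptors for WNT 9 were detected, led by FZD2 (48.2 TPM), and of 19 WNT ligands 5 were, led by WNT5A (55.8), WNT5B (33.9) and WNT7B (30.8). FGF2 (87.0 TPM) led 8 of 22 fibroblast growth factors. Of 32 TGF-beta and BMP ligands 9 were detected, led by TGFB1 (443), and of 7 insulin-like growth factor binding proteins 7 were, led by IGFBP7 (3009) and IGFBP3 (623). IGF2, their imprinted ligand, was at 0.131 TPM and the imprinted RNA H19 at 0.0626, while MEST (242) and MEG3 (97.9) were expressed. Of 14 CXC chemokines 3 were detected, among them CXCL8 (16) and CXCL12 (14.5, or 6.84 with all exons joined), and of 24 CC chemokines 3, led by CCL2 (114). IL11 (101 TPM), a cytokine of the IL6 family, led 12 of 45 interleukin and receptor genes, above IL6 itself (7.71).

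Collagens, integrins and matrix metalloproteinases were detected about as often as all protein-coding genes (61.3%), and laminins more often (10 of 12, 83.3%). A few members of these families were at high levels. Of 44 collagen genes 26 were detected (59.1%), with chains of types I, V and VI in front: COL6A2 had 905 TPM, COL1A2 729 and COL5A1 629. Basement membrane chains were lower, with COL4A2 at 279 and the laminin chains LAMB1 at 264 and LAMC1 at 226. Among integrins, the receptors for the matrix, 16 of 26 were detected (61.5%). ITGB1, the beta chain common to many of them, was at 1154 TPM, ITGA3, part of a laminin receptor, at 738 and ITGA5, part of the fibronectin receptor, at 721. MMP14, a protease anchored in the membrane, had 571, 562 and 564 TPM and led 13 of 23 matrix metalloproteinases (56.5%), followed by MMP2, which it activates (257). All 4 tropomyosins, which line actin filaments, were detected, from TPM3 (739.9 TPM) to TPM1 (1828), or 207 and 229 with all exons joined, as were all 4 inhibitors of these proteases, from TIMP4 (12.5) to TIMP1 (2861).

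Genes for the tasks of astrocytes in glutamate and ion balance were detected for 18 of 28 (64.3%, near the 61.3% of all protein-coding genes). The chloride channel protein CLIC1 (645 TPM) led them. The potassium channel KCNJ10 was at 0.0557 TPM. The amino acid transporter chain SLC3A2 was at 143, and GLUL, which makes glutamine from glutamate, at 24.8. Of 11 aquaporins the detected one was AQP11 (2.73 TPM). Glutamate receptor genes gave 3 of 18, led by GRIK2 (22.4), and GABA receptor genes 3 of 19, led by GABRE (21.5).

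Genes of cell division and of sugar use were abundant. All 25 proliferation genes were detected, against 61.3% of all protein-coding genes, led by CDC20 (320 TPM), CCNB1 (220) and PCNA (209). Of 29 glycolysis genes 21 were detected (72.4%). GAPDH was at 5647 TPM, ENO1 at 2779, PKM at 2684 (1310 with all exons joined) and LDHA at 1700. The testis forms GAPDHS and PGK2 were at 0. Of 42 cell death genes measured 33 were detected (78.6%). Among them were BAX (141 TPM), which permeabilises mitochondria, BIRC5 (124), which also serves in mitosis, and the protective BCL2L1 (109). With all exons joined the order differed, with BAX at 66.4, BIRC5 at 132.0 and BCL2L1 at 132.3 TPM. RIPK3, the kinase that starts necroptosis, was at 0.

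Of 36 genes that sense or convert foreign compounds 23 were detected (63.9%, near the 61.3% of all protein-coding genes), led by GSTP1 (416 TPM), a glutathione transferase, GSTK1 (195, or 74.0 with all exons joined) and EPHX1 (147). AHR, the dioxin receptor, was at 31.4 TPM. Its target CYP1B1 was at 49.0, while its other targets CYP1A1 (0.765 TPM) and CYP1A2 (0) were not detected. CYP3A4, the main drug oxidase of liver, was at 0.221. Of 55 cytochrome P450 genes 12 were detected. Nuclear receptors gave 26 of 48 (54.2%), among them RARA (81.2 TPM), RXRA (80.2, or 20.6 with all exons joined), PPARD (71.9) and NR3C1, the glucocorticoid receptor (63.1). ESR1 was at 0.224 and PGR at 0.148. Innate sensing genes gave 26 of 36 (72.2%), with TNFRSF1A at 221 TPM, MAVS at 42.2 and TMEM173, which encodes STING, at 41.6. TLR7 and TLR8 were at 0. Of 20 interferon-stimulated genes, a list added after the values were seen, 17 were detected (85.0%), led by ISG15 (85.3 TPM).

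Families tied to single tissues were close to silent. Olfactory receptors gave 0 of 380 detected, with 347 at 0, and beta defensins 0 of 39, all at 0. Keratin-associated proteins of hair gave 2 of 94. Zinc finger genes named ZNF were the opposite, with 442 of 508 detected (87.0%) at a median of 4.83 TPM. Of 26 MAGE genes, which are normally restricted to testis and often switched on in tumours, 6 were detected. MAGEA3 (32.7 TPM), MAGEA12 (25.6) and MAGEA6 (24.0) led them, but these near-identical copies share reads, and how the reads were split among them is uncertain.

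Of the 39 HOX genes, which set position along the body axis, 28 were detected (71.8%, against 61.3% of all protein-coding genes). The forebrain normally lacks HOX expression. The share was 9 of 11 in the HOXA cluster, 9 of 10 in HOXB, 7 of 9 in HOXC and 3 of 9 in HOXD. With a limit of 0.5 CPM in place of 1, HOXD gave 7 of 9. HOXC10 had 33.8, 30.6 and 34.2 TPM, HOXB3 29, 27 and 28.7, and HOXA9 24.4, 24.5 and 24.6. HOXB1 was at 0, and HOXC12, HOXD1 and HOXD12 were below 0.1 TPM. Genes of a HOX cluster overlap and have antisense transcripts, and the strand setting of the counting is not given in the sources used here, so the split between neighbours is uncertain.

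**Figure D3:**
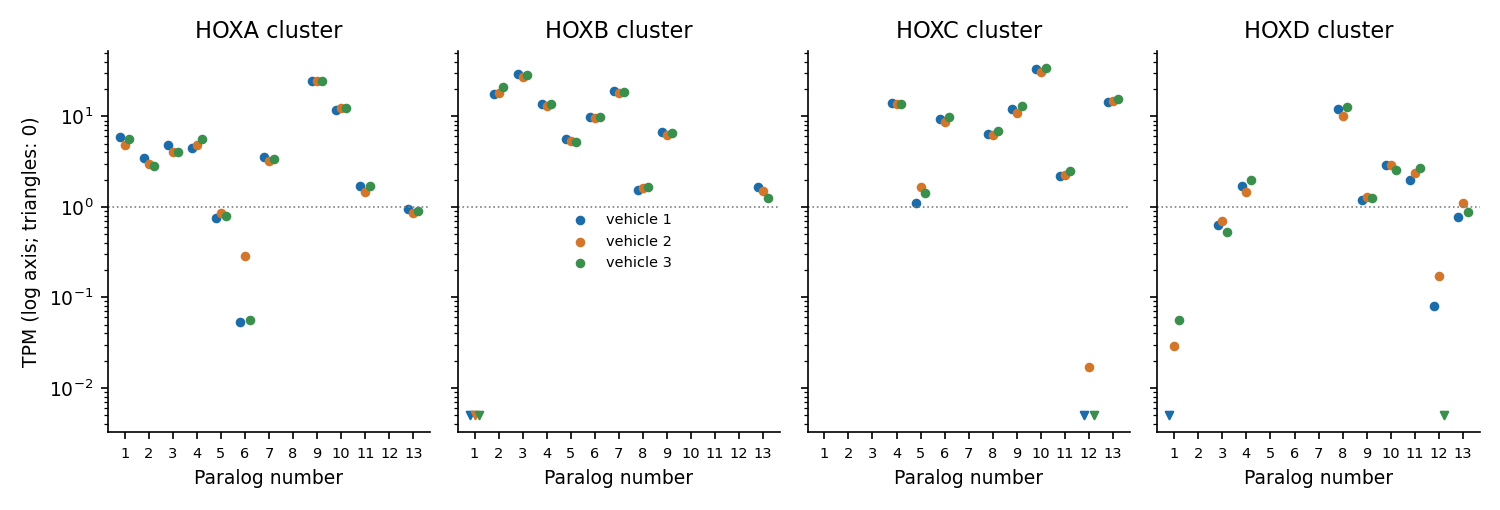
TPM (vertical, log axis) of the 39 HOX genes by paralog number (horizontal) in the 4 clusters, 1 point per vehicle library (colours), triangles for a count of 0 drawn at 0.005, and a dotted line at 1 TPM. Most HOXA, HOXB and HOXC genes lie above the line, up to 34.2 TPM for HOXC10, and the HOXD genes lie lower, with HOXD8 at 11.6 TPM in front.

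Of all runs of 10 neighbouring protein-coding genes (19399 runs), the one with the highest median CPM lay on chromosome 4, from TMEM165 to PPAT, with a median of 180 CPM. The same stretch also held the highest median among runs of 5 and of 20 genes. By median TPM, which divides by length, its best run of 10 genes ranked 4. It was singled out after the values were seen and is described without a test. Between SRD5A3 and IGFBP7 (chr4:55346109-57110385, GRCh38) there are 21 protein-coding genes, of which 18 were detected and 12 had at least 100 CPM, a level reached by 10.5% of all nuclear protein-coding genes. Their median was 147 CPM, against 8.24 CPM over all such genes, and together they held 1.34% of counts. Per length, their median was 94.3 TPM, against 5.67 TPM over all such genes. The summed level was 13524, 13473 and 13317 CPM in libraries 1 to 3.

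Of these genes 5 were among the 100 highest by CPM when all genes were ranked, mitochondrial and noncoding ones included. PAICS, which carries out consecutive steps of purine synthesis, had 3137, 3101 and 3084 CPM. SRP72, part of the particle that targets proteins to the endoplasmic reticulum, had 2773, 2704 and 2743 CPM. CLOCK, a transcription factor of the circadian clock, had 1411, 1349 and 1423. POLR2B, a core subunit of RNA polymerase II, had 1559, 1605 and 1561, and IGFBP7, a secreted binding protein, 1877, 1916 and 1804. PPAT, whose start faces away from that of PAICS, had 435, 445 and 437 CPM. In TPM, IGFBP7 (3009) exceeded SRP72 (1525), PAICS (1104), POLR2B (882), CLOCK (311) and PPAT (275).

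Not every gene of the stretch was high. PDCL2, EXOC1L and SPINK2 were below 1 CPM, KIAA1211 was at 2.36, ARL9 at 4.72 and THEGL at 6.99. The nearest gene on the lower side, the receptor KDR, had 28.1 CPM, KIT had 48.2 and PDGFRA 23.5, and CHIC2 beyond them had 125. Of 19 genes of the stretch with a promoter window 73.7% had a CpG-rich one, against 65.4% of all genes.

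**Figure D4:**
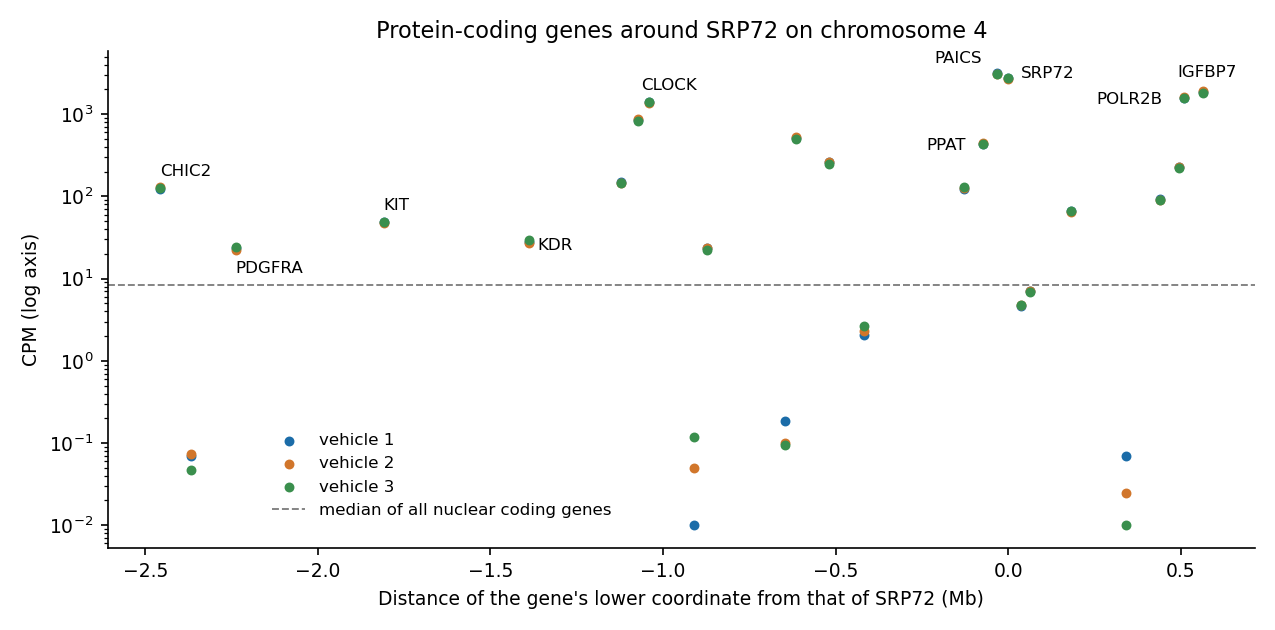
CPM (vertical, log axis, values under 0.01 drawn at 0.01) of protein-coding genes on chromosome 4 by distance from SRP72 (horizontal, Mb), 1 point per vehicle library, with the median of all nuclear protein-coding genes (8.24 CPM) dashed. PAICS (3108) and SRP72 (2740) stand highest, and KDR, KIT and PDGFRA on the left lie between 23.5 and 48.2 CPM.

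The 3 libraries were close to each other. The common biological coefficient of variation, edgeR's estimate of the spread beyond counting error, was 2.55% over 16051 genes. Among the 11069 genes with a mean of at least 5 CPM, the median ratio of the highest to the lowest library was 1.06, and 16 genes (0.145%) exceeded 1.5. The SD of the log2 ratio between a pair of libraries was 0.084 to 0.093. Pairs of libraries differed by more than counting error, with a chi-square of 2.40 to 3.27 per degree of freedom and a median over genes of 1.46 to 1.70 times that of counting alone, so each was kept as 1 sample. This does not show whether they were separate cultures. The least variable of the 500 highest genes was SERBP1, an RNA-binding protein, with 563.5, 562.5 and 563.2 CPM.

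The spread followed the level. Genes from 1 to 3 CPM had a median CV of 9.86%, of which counting alone gives 9.47%. From 300 to 1000 CPM it was 1.85%, against 0.619% from counting. Counting error thus made up nearly the whole CV of low genes and a minor part of that of high ones. Deviations were taken from each gene's mean over the same 3 libraries, so opposite directions between libraries are partly built in. Library 2 deviated with transcript length (Spearman's rho -0.24 across 11046 genes). Library 3 did so in the other direction (0.22), with 0.05 for library 1. For GC content the values were -0.04 for library 1, -0.09 for library 2 and 0.14 for library 3. Genes are not independent replicates, and the part of length in any single gene's spread was not tested.

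**Figure D5:**
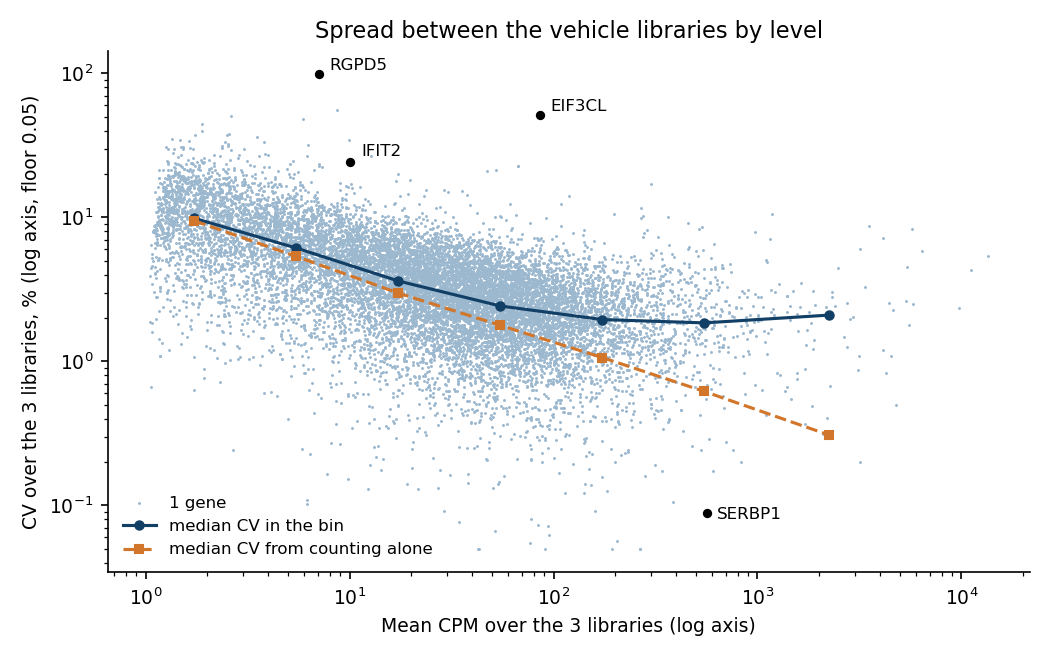
CV over the 3 vehicle libraries (vertical, percent, log axis, values under 0.05 drawn at 0.05) against mean CPM (horizontal, log axis) for each of the 13475 detected genes, with the median per level bin (solid) and the CV that counting alone gives (dashed). The lines are close from 1 to 3 CPM (9.86% and 9.47%) and draw apart as the level rises, to 1.85% and 0.619% from 300 to 1000 CPM. RGPD5, EIF3CL and IFIT2 lie above the cloud and SERBP1 below it.

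Of the 16 genes above 1.5-fold 9 were not protein-coding: 4 antisense RNAs, 3 lincRNAs and 2 pseudogenes. EIF3CL, a copy of the translation initiation gene EIF3C, had 86.3, 130 and 41.4 CPM, but EIF3C and EIF3CL together had 762, 765 and 737, a ratio of 1.04. RGPD5, a copy of the nuclear pore gene RANBP2, had 15.1, 2.65 and 3.49 CPM, and the 8 genes of that group together 201, 195 and 201, a ratio of 1.03. RSEM shares reads among copies by estimation, so single values of such genes are uncertain. AC008622.2 (13.2, 3.56 and 9.12 CPM) and CU633967.1 (7.04, 2.67 and 7.98) were the other genes above 2-fold, and neither is protein-coding.

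IFIT2, an interferon-induced RNA-binding protein, was also among the 12 most variable genes, with 12.8, 9.50 and 8.01 CPM, highest in library 1. IFIT3 (26.3, 23.2 and 19.8 CPM) and OASL (12.1, 9.63 and 8.98) had the same order, and MX1 (12, 10.5 and 11.4) was also highest there. Of the 17 detected interferon-stimulated genes 12 were highest in library 1, 3 in library 2 and 2 in library 3, whereas of all detected genes 32.0% were highest in library 1. The list was added after IFIT2 was seen to vary, and IFIT2 is counted in it. Their sum was 370, 354 and 346 CPM, a narrow range.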

How the data were processed

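Each value in the authors' table is a gene's RSEM expected count, from paired reads of 100 bases of a directional kit. Per the submitters' processing notes, the tools were FastQC 0.11.9, Trim Galore 0.6.5, STAR 2.7.3a (build hg38) and RSEM 1.3.3. Annotation release and strand setting are not given in the sources used here. RNA integrity numbers were above 7, per the labels' protocols. The table has 279 columns: the 3 vehicle columns were used, the 6 treated columns and 270 columns of other samples were not. Expected counts were rounded to whole numbers.

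Symbols and positions came from GENCODE 29 (57055 of 60675 genes). The 3620 genes with no symbol held 0.031% to 0.032% of counts. CPM used TMM factors (0.995 to 1.003) from edgeR 4.0.16 in R 4.3.3. TPM used the length of the principal protein-coding transcript (20107 genes), otherwise of the longest transcript, so it is not RSEM's own. A TPM of a gene shorter than the reads is not interpretable. Dispersions were estimated in edgeR after filterByExpr (minimum count 10, minimum total 15), in a procedure tested on simulated data. Promoter windows are RefSeq's (GRCh38.p14), taking the one nearest the start of the transcript used.

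The rule named the 30 highest genes by CPM and by TPM, up to 6 members per list, list members at 0, every lineage marker, the 12 most and 6 least variable genes, and the text describes a part of them. The libraries described, labelled vehicle, and the 30 lists and 43 families were chosen with earlier results of these data known. The chromosome 4 genes, the interferon list, and genes in the text outside the rule were chosen after values were seen. Some genes that the rule names are not reported here.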

Additional observations from a re-analysis of the deposited data

How the results depend on the processing

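The 13475 detected genes became 14608 at 0.5 CPM, 16132 at 10 counts and 13721 at 1 TPM, and 13548 to 13563 without 1 replicate. The share of counts in the 10 most abundant genes, 7.34% on average, was 5.66% without mitochondrial genes. The common biological coefficient of variation of 2.55% was 2.57% with no filter, 2.56% with DESeq2 size factors, 5.23% as the square root of DESeq2's median dispersion per gene, and 2.15% to 2.89% without 1 replicate. The median CV of detected genes, 3.27%, was 3.28% with DESeq2 size factors and 2.49% to 2.89% without 1 replicate. The 16 genes above 1.5-fold became 5 at a mean of at least 10 CPM and 110 among all detected genes, both limits added after seeing the data, and 6 to 9 without 1 replicate, where 2 libraries are left to differ. With all exons joined as the length, 45 of 586 named genes had less than 0.5 times their mean TPM and 0 more than 2 times, so the order of levels between genes depends on the length used. Of 78 lists and families, 73 kept their count of detected members within 1.5 times at 0.5 CPM and 5 did not: endothelial markers (3 to 7), muscle markers (2 to 4), aquaporins (1 to 2), glutamate receptors (3 to 6) and the HOXD cluster (3 to 7). With observed over expected CpG of at least 0.75, 85.3% of CpG-rich genes and 42.0% of the others were detected. At 0.6 the shares were 82.7% and 31.0%. The rank of the chromosome 4 run of genes by median level was 1 with 5, 10 or 20 genes and without any 1 replicate, and 4 by TPM, a setting added after seeing the data. No paired analysis was possible because there is 1 group. At this depth genes under about 3 CPM are limited by counting. From 10 to 30 CPM counting was still a large part, 2.99% beside a median CV of 3.62%. Having 3 libraries limits every SD.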
